A study of Mus musculus with 4 samples.

Results

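The mRNAs of 8 genes for AU-rich element binding proteins were followed in RNA immunoprecipitates of mouse early erythroid progenitors: Zfp36, Zfp36l1, Zfp36l2, Khsrp, Hnrnpd, Elavl1, Tia1 and Tial1. They were taken by name, through all probe sets of the array whose annotation gave 1 of these symbols and no other. Each gene had 1 such probe set, so 8 of 21789 probe sets and 8 of 19938 genes are described. Livers of C57BL/6 embryos at E14.5 gave the cells. Magnetic depletion had removed mature blood cells and cells positive for Sca-1, CD16/32, CD41 or CD34, and a sort kept c-Kit positive cells with the lowest CD71. Lysates were incubated with control rabbit IgG (2 arrays) or with antibody to an RNA-binding protein, here called RBP (2 arrays), and all 4 arrays share strain, age, tissue and sort. The labels do not name the protein. Knowledge of the study's publication points to ZFP36L2, itself the product of one of the 8 genes, and this was not checked against the antibody used. The labels do not tell whether replicate arrays stem from separate pools of cells, so the p-values reflect only how much these arrays vary, and that variation may be technical.

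AU-rich elements are stretches rich in A and U in the 3′ untranslated ends of short-lived mRNAs, and the proteins that bind them decide how long such an mRNA lasts and how well it is translated. The ZFP36 family (tristetraprolin, ZFP36L1 and ZFP36L2) binds them through paired CCCH zinc fingers and recruits the CCR4-NOT deadenylase, and KHSRP brings decay enzymes as well. HNRNPD (AUF1) can speed or slow decay, ELAVL1 (HuR) stabilises, and TIA1 and TIAL1 (TIAR) silence translation and collect in stress granules. Several of these proteins are known to bind AU-rich mRNAs that encode members of the same families. What the arrays measured is the mRNA of each gene in the immunoprecipitate, not the protein.

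Levels are log2 values made by the authors with RMA, and a difference is the mean RBP level minus the mean IgG level, so that 1 unit is a doubling. Higher and lower refer to the RBP arrays. Array medians were 5.85 and 5.93 with IgG and 5.57 and 5.62 with RBP, and the interquartile range was wider with RBP (3.73 and 3.61) than with IgG (2.91 and 2.87). All 8 genes lay above 5.36, the 95th percentile of 1240 chemosensory receptor genes and taken as the background level. The 7 early erythroid markers examined, among them Kit and Epor, were also above it, and of 13 markers of other cells 9 were. By limma, with p-values adjusted by Benjamini-Hochberg over all genes, 23.8% of genes were higher and 6.54% lower at an adjusted p under 0.05. Of the 8 genes, 3 were higher (Zfp36l2, Hnrnpd and Tia1), 1 was lower (Zfp36l1) and 4 did not pass. The differences were positive for 3 and negative for 5, of which Zfp36, Khsrp, Elavl1 and Tial1 turned positive under limma's scale method. Their median was -0.27, against -0.02 over all genes. At the levels where these genes lie most genes were shifted upward. Genes with a mean level between 8 and 9 had a median difference of 0.78, those between 9 and 10 of 0.74, those between 10 and 11 of 0.61 and those above 11 of 0.29. Stronger recovery of 1 mRNA and a different total of recovered RNA cannot be told apart on these arrays.

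**Figure D1:**
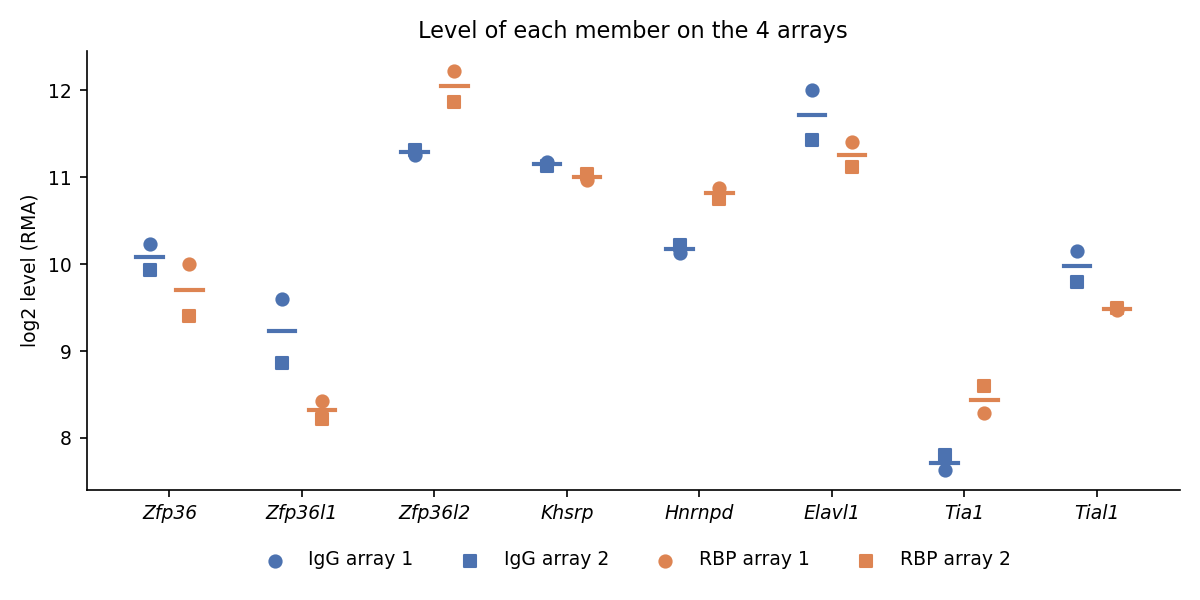
Log2 level of each of the 8 genes on the 2 IgG arrays (blue) and the 2 RBP arrays (orange), with circles for array 1, squares for array 2 and a line at each group mean. The RBP arrays lie above both IgG arrays for Zfp36l2, Hnrnpd and Tia1, below both for Zfp36l1, Khsrp, Elavl1 and Tial1, and overlap them for Zfp36.

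Zfp36l2, whose product promotes deadenylation of AU-rich mRNAs and which is the presumed target of the antibody, stood at 11.26 and 11.31 with IgG and at 12.22 and 11.87 with RBP. Both RBP arrays were above both IgG arrays, and the IgG pair was the closer of the 2 pairs. The means were 11.29 ± 0.04 (SD, n = 2) and 12.05 ± 0.25 (SD, n = 2), a difference of 0.76 ± 0.18 (SE; limma, adjusted p = 0.0255), or 1.69-fold. The call was lost without RBP array 1 (0.58, adjusted p = 0.218 in limma) and without RBP array 2 (0.94, adjusted p = 0.0654).

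Zfp36l1, a paralog with the same kind of zinc fingers, went the other way. Its levels were 9.60 and 8.86 with IgG and 8.42 and 8.22 with RBP. The groups did not overlap, but the IgG arrays were 0.74 apart, the widest gap within a group among the 8 genes. The difference was -0.91 ± 0.27 (SE; limma, adjusted p = 0.0493), so that the IgG level was 1.88-fold the RBP level. The call was at the threshold and was lost without IgG array 1 (-0.54, adjusted p = 0.0573 in limma), without RBP array 1 (-1.01, adjusted p = 0.126) and without RBP array 2 (-0.81, adjusted p = 0.193). It was also lost when every probe set was tested as its own feature (adjusted p = 0.0509).

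Zfp36, which encodes tristetraprolin and is an immediate early gene in many cells, stood at 10.24 and 9.93 with IgG and at 10.00 and 9.40 with RBP. One RBP array lay between the IgG arrays, so the groups overlapped. The difference of -0.38 ± 0.24 (SE; limma, adjusted p = 0.263) did not pass. It was -0.68 without RBP array 1 and -0.09 without RBP array 2.

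Khsrp, the KH-domain protein that recruits the exosome and PARN to AU-rich mRNAs, had the smallest difference of the 8. Its levels were 11.17 and 11.13 with IgG and 10.97 and 11.04 with RBP. The RBP arrays were below both IgG arrays by a small margin, and the difference of -0.15 ± 0.14 (SE; limma, adjusted p = 0.444) did not pass; it became 0.17 when the arrays were centred on the chemosensory genes.

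Hnrnpd, which encodes the AUF1 isoforms, had close replicates. It stood at 10.13 and 10.21 with IgG and at 10.88 and 10.75 with RBP. The groups were well separated compared with the gap inside each, and the difference was 0.64 ± 0.15 (SE; limma, adjusted p = 0.0246), or 1.56-fold. The call was lost without RBP array 1 (0.58, adjusted p = 0.220 in limma) and without RBP array 2 (0.71, adjusted p = 0.132). Splice isoforms of AUF1 share this probe set and were not resolved.

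Elavl1, the stabilising protein HuR, was at 12.00 and 11.42 with IgG and at 11.40 and 11.12 with RBP. The IgG arrays differed by 0.58, and the lower of them was 0.02 above the higher RBP array (11.42 against 11.40), so the separation was marginal. The difference of -0.45 ± 0.24 (SE; limma, adjusted p = 0.190) did not pass. Without IgG array 2 it was -0.74 (limma, adjusted p = 0.0331, with the spread taken from the RBP pair alone), and without IgG array 1 it was -0.16 (adjusted p = 0.499).

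Tia1 and Tial1, the paired translational silencers, had opposite signs. Tia1 stood at 7.63 and 7.80 with IgG and at 8.29 and 8.59 with RBP, a difference of 0.72 ± 0.17 (SE; limma, adjusted p = 0.0280), or 1.65-fold, with no overlap. The call was lost without IgG array 1 (0.64, adjusted p = 0.0546 in limma). It was lost without RBP array 1 (0.88, adjusted p = 0.0875 in limma) and without RBP array 2 (0.57, adjusted p = 0.214). Tial1 stood at 10.15 and 9.80 with IgG and at 9.47 and 9.49 with RBP. Both RBP arrays were below both IgG arrays, and they differed from each other by 0.03. Its difference of -0.49 ± 0.18 (SE; limma, adjusted p = 0.0816) did not pass. With IgG array 2 left out it was -0.67 (adjusted p = 0.0225 in limma), and with IgG array 1 left out -0.32 (adjusted p = 0.130), each with the spread taken from the RBP pair alone.

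Over the 8 genes, both RBP arrays were above both IgG arrays for 3 and below for 4, while this held for 37.4% and 36.2% of all genes. An exact two-sided permutation test of 2 arrays against 2 cannot give less than 0.333. Without an RBP array, the residual variance in limma comes from the IgG pair alone, and without an IgG array from the RBP pair alone, with the lone array assumed to vary alike. The gaps between the IgG arrays had an SD of 0.401 over genes, against 0.258 for the RBP pair.

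Each gene was then set against all other genes with a mean level within 0.25 log2 units of its own, as a description with no test. For Zfp36l1, 1082 genes of like level had a median difference of 0.81 and a 10th to 90th percentile range of -0.03 to 1.42, and 1.57% of them had a difference below that of Zfp36l1. Of those genes 58.9% were called higher and 1.94% lower. For Tial1, 713 genes had a median of 0.72 and 4.63% of them lay below it. For Zfp36, 616 genes had a median of 0.70 and 7.31% lay below it. These genes were all below the 10th percentile of genes of like level.

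Elavl1 and Khsrp were also on the low side but inside that range. Of 71 genes near the level of Elavl1, with a median of 0.32, 12.7% lay below it. Of 156 genes near Khsrp, with a median of 0.56, 19.2% lay below it. The genes called higher differed in how they compared. Hnrnpd (0.64 against a median of 0.56 over 360 genes) and Tia1 (0.72 against 0.76 over 1285 genes) were near the middle of their neighbours, with 57.2% and 48.0% of genes below them. Zfp36l2 was high for its level, as 45 of 50 genes near it lay below and their median was 0.15. Only 20.0% of those 50 were called higher, against 47.5% near Hnrnpd and 53.8% near Tia1.

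**Figure D2:**
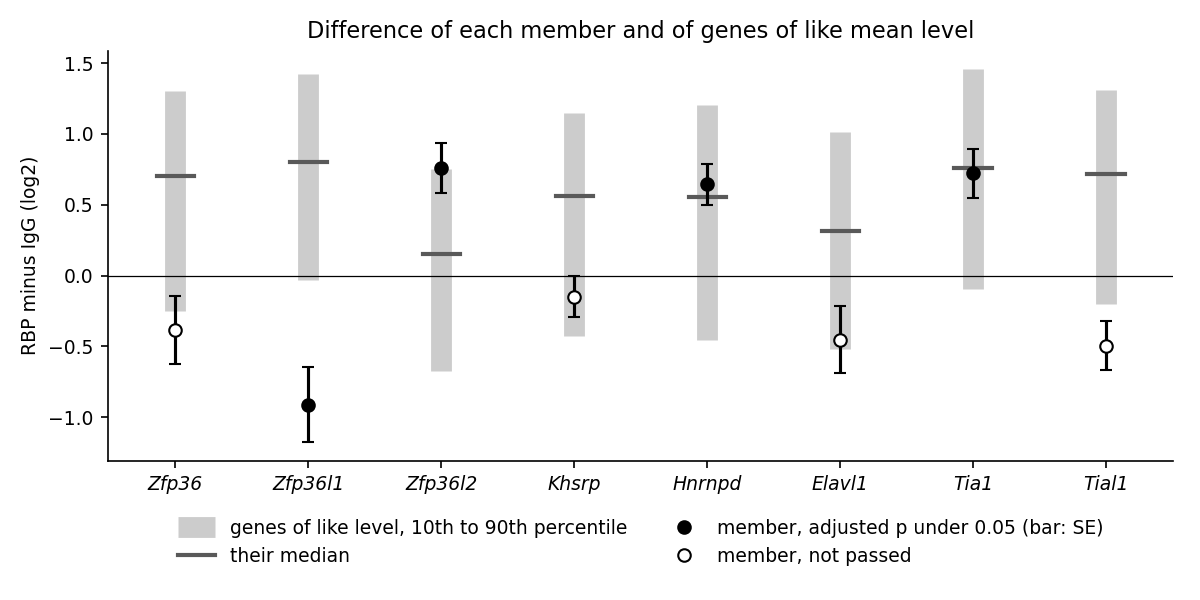
Difference, RBP minus IgG in log2 units, of each of the 8 genes (points with SE bars, filled where the adjusted p was under 0.05) over the 10th to 90th percentile (grey bar) and the median (dark line) of genes of like mean level. Zfp36, Zfp36l1 and Tial1 lie below their grey bars, Hnrnpd and Tia1 near the medians, and Zfp36l2 at the upper end.

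With the trend of the difference on the mean level subtracted by loess before the test, limma called 5.63% of all genes higher and 5.09% lower. In that setting 0 of the 8 genes were higher, and Zfp36l1 (-1.63, adjusted p = 0.0247 in limma) and Tial1 (-1.11, adjusted p = 0.0233) were lower. At an unadjusted p under 0.05 the counts in that setting were 1 higher and 5 lower in limma. The share of all genes at that cutoff with the trend subtracted was not counted. Without the subtraction, limma at that cutoff gave 3 of the 8 higher and 2 lower, beside 5913 and 2941 of all 19938 genes. Zfp36 (-0.97, adjusted p = 0.0585), Khsrp (-0.50, adjusted p = 0.0803), Zfp36l2 (0.57, adjusted p = 0.0942) and Elavl1 (-0.69, adjusted p = 0.121) did not pass in limma with the trend subtracted. Hnrnpd (0.16, adjusted p = 0.524) and Tia1 (0.03, adjusted p = 0.938) then had differences close to 0. With a robust loess, Zfp36 (-1.11, adjusted p = 0.0452 in limma) and Khsrp (-0.63, adjusted p = 0.0485) passed as lower too, and Tia1 turned to -0.07. Over all genes the robust loess gave 971 higher and 1135 lower.

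**Figure D3:**
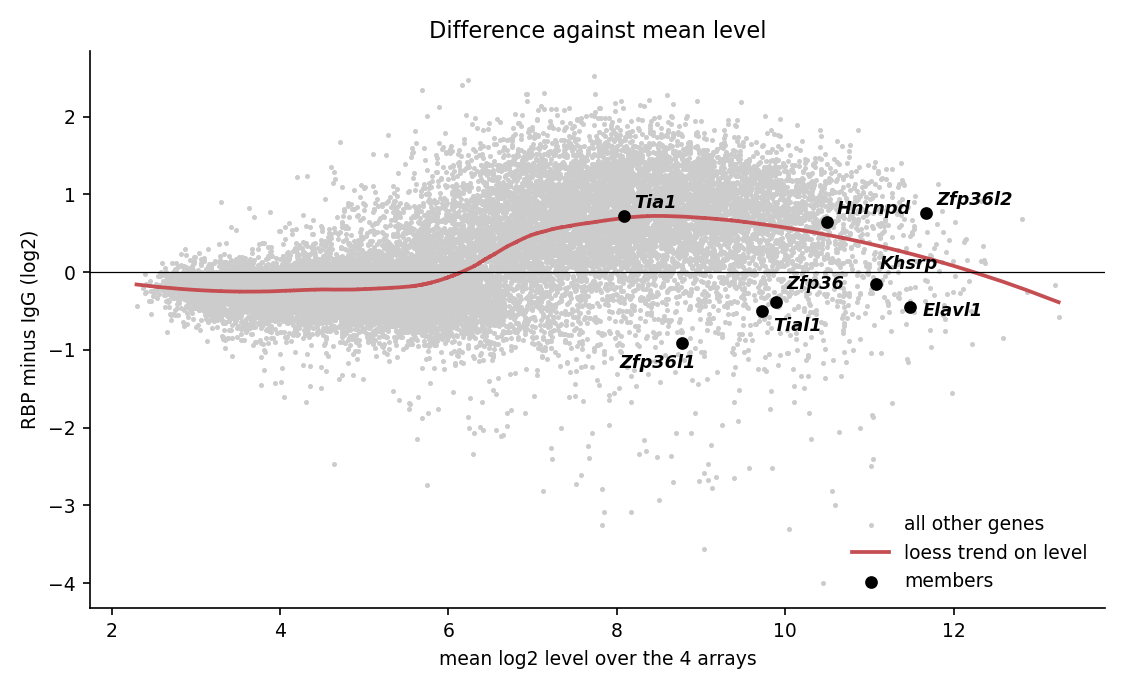
Difference, RBP minus IgG in log2 units, against the mean log2 level over the 4 arrays for all 19938 genes (grey), with the loess trend (red) and the 8 genes (black, named). Tia1 and Hnrnpd lie near the trend, Zfp36l2 above it and the other 5 genes below it.

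Paralogs and functional counterparts were compared within arrays, which cancels any shift added to a whole array. The gap of Zfp36l2 over Zfp36l1 was 1.66 and 2.45 with IgG and 3.80 and 3.65 with RBP. It was wider on both RBP arrays and changed by 1.67 log2 units. The gap of Zfp36l2 over Zfp36 was 1.02 and 1.38 with IgG and 2.23 and 2.47 with RBP, a change of 1.14. Zfp36l1 relative to Zfp36 gave the smallest change of the ZFP36 pairs, from -0.64 and -1.07 to -1.58 and -1.19, a change of -0.53. That change was -0.31 without IgG array 1 and -0.33 without RBP array 1.

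Tia1 relative to Tial1 stood at -2.52 and -1.996 with IgG and at -1.18 and -0.90 with RBP, a change of 1.22. Elavl1 relative to Hnrnpd went from 1.88 and 1.21 to 0.52 and 0.37, a change of -1.10. In each of these 5 pairs the groups did not overlap, and each exact two-sided permutation p was 0.333, the smallest that 6 arrangements of the arrays allow, and 0.333 when adjusted over the 5 pairs. The share of gene pairs at large without overlap was not counted, and among single genes it was 37.4% above and 36.2% below. The 5 are not independent, as Zfp36l1 relative to Zfp36 follows from the gaps of Zfp36l2 over each. The probe sets of 2 genes need not respond alike to the amount of RNA, so the changes are unequal responses, and the gaps themselves are not abundance ratios.

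Zfp36, Zfp36l1 and Elavl1 had the higher value on array 1 in both groups. Among all genes 31.4% did so, and among 13 markers of other cell types 11 did. The mean log2 level of those 13 markers was 6.98 and 6.24 with IgG and 6.96 and 6.38 with RBP. The macrophage marker Cd68 alone of the 13 passed, as lower (-1.59, adjusted p = 0.00568 in limma). Both RBP arrays were above both IgG arrays for 4 of the 13, against 37.4% of all genes. These were the macrophage markers Csf1r (1.12) and Adgre1 (0.58), Itga2b of megakaryocytes (0.43) and Cdh5 of endothelium (0.50). None of these passed in limma. Both RBP arrays were below both IgG arrays for 2 of the 13, Cd68 and Ttr of hepatocytes (-0.39), against 36.2% of all genes. With the array number as a block, limma called 5 of the 13 higher and 2 lower, beside 5885 and 2199 of all 19938 genes. Mean levels at or below background were those of Afp and Ttr of hepatocytes, Adgre1 of macrophages and Pf4 of megakaryocytes. Other markers of these cell types lay above it, namely Alb at 6.83, Csf1r at 7.80, Cd68 at 7.02 and Itga2b at 7.72. Cpa3 of mast cells (8.06) and Pecam1 (7.16) and Cdh5 (5.87) of endothelium were above it too. So were Cd34 (9.39) and Fcgr3 (6.355), which like Itga2b are markers of progenitors that the depletion targeted. The part of such cells in the levels of Zfp36, Zfp36l1 and Elavl1 was not tested.

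The gene closest to each of the 8 in its 4 log2 levels was found by root mean square distance among the other genes with established symbols. For Hnrnpd it was the stress granule gene G3bp1 (distance 0.0371, difference 0.71), and for Zfp36l2 the cell cycle kinase gene Cdk6 (0.0708, difference 0.75). For Tia1 it was the nucleolar protein gene Rbm28 (0.0752, difference 0.79), and for Tial1 the CBP/p300 interactor gene Cited2 (0.0665, difference -0.57). Zfp36l1 was closest to Cox20, a cytochrome oxidase assembly factor (0.0941, difference -0.89), and Zfp36 to Ifngr2, an interferon gamma receptor chain (0.114, difference -0.41). Khsrp was closest to Ranbp1, a Ran-binding protein (0.0835, difference -0.26), and Elavl1 to Tram1, a translocon protein (0.116, difference -0.38). With 4 arrays these distances describe level and direction and nothing more.

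Genes that act beside the 8 are read here against the share called higher by limma, which was 23.8% of all genes but more among genes of higher level: 47.1% of those between 7 and 8, 56.4% between 8 and 9, 57.8% between 9 and 10, and 50.1% between 10 and 11. The median level of each of the 4 lists that follow lay between 9 and 11. Among 20 other AU-rich element binding proteins, 6 were higher, 0 lower and 14 did not pass, with a median of 0.31. At an unadjusted p under 0.05, 8 of them were higher and 1 lower in limma, beside 5913 and 2941 of all 19938 genes. Auh, which encodes an AU-binding enoyl-CoA hydratase, rose most (1.37 ± 0.18, SE; limma, adjusted p = 0.00640), followed by Hnrnpa0 (1.26 ± 0.15) and the KH-domain gene Mex3d (0.91 ± 0.19). The neural ELAVL genes Elavl2 and Elavl4 and the placental Zfp36l3, 3 genes named for being at or below background, had differences of -0.12, -0.07 and -0.30. Hnrnpdl, the closest relative of Hnrnpd and named after its value was seen, had a difference of -0.50 ± 0.19 without a call (adjusted p = 0.0913 in limma). With the level trend subtracted it was -1.11 and called lower (adjusted p = 0.0257 in limma). Hnrnpab of the same list, also named after its value was seen, went the other way. It was called higher (0.83 ± 0.16, adjusted p = 0.0142 in limma), and with the trend subtracted it did not pass (0.59, adjusted p = 0.0686). With the level trend subtracted, 1 gene of this list was higher and 3 were lower, beside 1122 and 1014 of all 19938 genes. Fewer genes of the list passed as higher without RBP array 1 or RBP array 2, and the same held among all genes. Mex3d no longer passed when RBP array 1 was left out (adjusted p = 0.148 in limma).

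Of 22 kinases, phosphatases and binding partners that act on these proteins, 13 were higher, 1 was lower and 8 did not pass, with a median of 0.65, beside 23.8% of all genes called higher and 50.1% to 57.8% of genes at levels of 9 to 11. The catalytic subunit gene of PP2A, Ppp2ca, which opposes phosphorylation of tristetraprolin, was higher by 1.19 ± 0.15 (SE; limma, adjusted p = 0.00610). The p38 kinase gene Mapk14 (1.18 ± 0.19) and Mapkapk2 (1.15 ± 0.20), whose product phosphorylates the ZFP36 proteins, were higher as well. The 14-3-3 gene Ywhae, whose product binds phosphorylated tristetraprolin, was lower by limma, at -1.04 ± 0.21 (adjusted p = 0.0165). The other 14-3-3 genes of the list, named after their values were seen, were not lower. Ywhah (0.80, adjusted p = 0.0121 in limma) and Ywhab (0.59, adjusted p = 0.0324) were higher, and Ywhag, Ywhaq and Ywhaz did not pass. With the level trend subtracted, Ywhae and Ywhaq were lower and the rest of the 14-3-3 genes did not pass. Over the whole list, 1 gene was higher and 2 were lower with the level trend subtracted, beside 1122 and 1014 of all 19938 genes. Fewer of the list passed as higher without RBP array 1 or RBP array 2, as among all genes. Mapk14 and Mapkapk2 lost their calls without RBP array 1 (limma, adjusted p = 0.0656 and 0.0756), and Ywhae without RBP array 1 (0.0762) or RBP array 2 (0.0864).

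Of 20 genes of the decay and repression machinery that the ZFP36 proteins and KHSRP recruit, 14 were higher, 0 lower and 6 did not pass, with a median of 0.99, beside the same shares of 23.8% and 50.1% to 57.8%. At an unadjusted p under 0.05 the counts in limma were the same, 14 and 0, beside 5913 and 2941 of all 19938 genes. The deadenylase Cnot8 (1.89 ± 0.18, SE; limma, adjusted p = 0.00558), Dcp2, which removes the cap (1.88 ± 0.18), and the decapping enhancer Edc3 (1.51 ± 0.27) led. The scaffold Cnot1, which tristetraprolin contacts directly, was higher by 1.33 ± 0.17, named after its value was seen. So were the other Cnot genes of the list: Cnot3 (0.73) and Cnot6 (0.94) were higher and Cnot2 (0.36) did not pass. Cnot7 (-0.13) and Cnot6l (-0.31) were negative without a call. With the level trend subtracted these last were called lower (-0.81, adjusted p = 0.0336 in limma, and -0.88, adjusted p = 0.0306). Subtracting the level trend left 4 of the 20 higher and made 2 lower, beside 1122 and 1014 of all 19938 genes. Fewer of the 20 passed as higher without RBP array 1 or RBP array 2, as among all genes. Edc3 no longer passed when RBP array 2 was left out (limma, adjusted p = 0.0549).

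Of 8 stress granule genes known to go with TIA1 and TIAL1, 6 were higher, 0 lower and 2 did not pass, with a median of 0.74, again beside 23.8% and 50.1% to 57.8%. At an unadjusted p under 0.05, 7 were higher and 0 lower in limma, beside 5913 and 2941 of all 19938 genes. G3bp2, a granule nucleator, rose by 1.25 ± 0.15 (SE; limma, adjusted p = 0.00568), the helicase Ddx3x by 1.02 ± 0.14 and the deubiquitinase Usp10 by 0.94 ± 0.16. The count of higher genes was 1 with the level trend subtracted, beside 1122 of all 19938 genes. Fewer of the 8 passed as higher without RBP array 1 or RBP array 2, as among all genes. Ddx3x and Usp10 lost their calls without RBP array 1 (limma, adjusted p = 0.0542 and 0.0717) or RBP array 2 (0.0592 and 0.0770). The medians of these lists were not tested against that of the 8 genes.

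**Figure D4:**
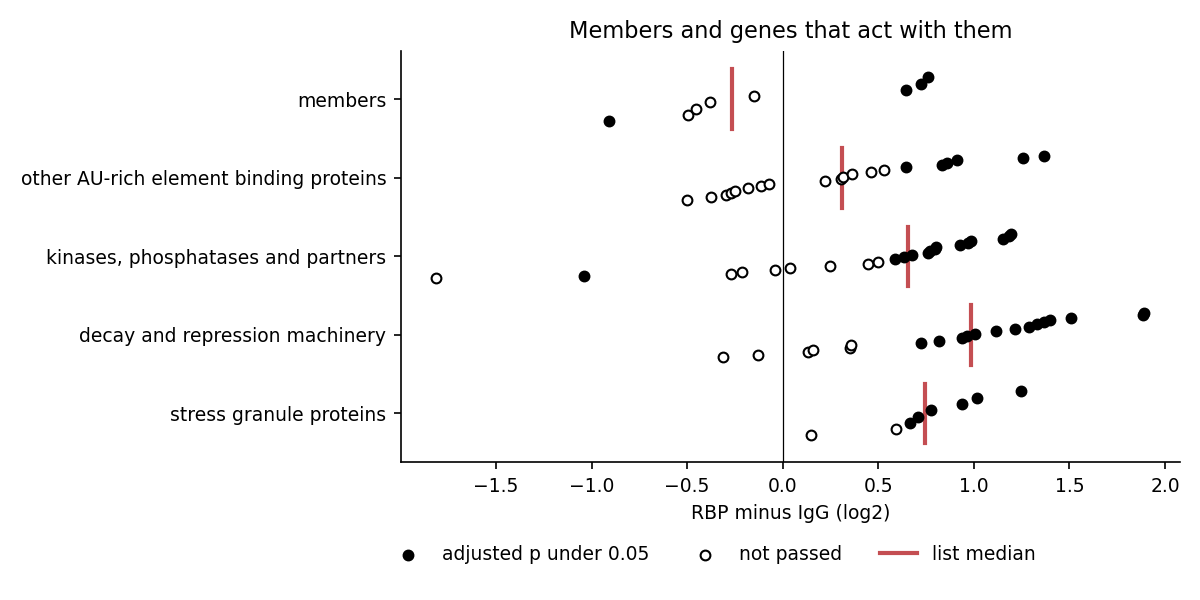
Difference, RBP minus IgG in log2 units, of the 8 genes and of the genes of 4 lists that act with them (filled points: adjusted p under 0.05), with each list's median as a red line. The median is -0.27 for the 8 genes and 0.31, 0.65, 0.99 and 0.74 for the lists from top to bottom.

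How the arrays were scaled changed which of the 8 genes were called. Quantile normalization over all probe sets kept Zfp36l2 higher (0.78, adjusted p = 0.0497 in limma) and Zfp36l1 lower (-1.39, adjusted p = 0.0271), made Tial1 lower (-0.92, adjusted p = 0.0283) and left Hnrnpd (0.39, adjusted p = 0.161) and Tia1 (0.24, adjusted p = 0.422) without a call. Over all 19938 genes that setting called 2207 higher and 553 lower. Centring on the chemosensory genes raised all 8, with Zfp36l2, Hnrnpd and Tia1 higher and Zfp36l1 at -0.60 (limma, adjusted p = 0.116). After centring, 7074 of all genes were called higher and 317 lower. When arrays were multiplied to equal medians by limma's scale method, Zfp36 (0.12), Khsrp (0.42) and Elavl1 (0.13) turned positive and Tial1 was at 0.00. Equal median and spread lowered the differences of all 8, although the median over all genes rose from -0.02 to 0.33. This setting called 0 of the 8 higher and 4 lower, namely Zfp36l1, Khsrp, Elavl1 and Tial1, with Zfp36l2 at 0.04. Over all 19938 genes it called 4205 higher and 488 lower. At an unadjusted p under 0.05 in limma, 1 of the 8 was higher and 5 were lower in that setting. The share of all genes at that unadjusted cutoff was not counted there, and the 4205 and 488 are counts at an adjusted p. Of the 16 alternative settings, 11 altered the differences of the 8 genes, and in those Zfp36l1 was negative and Zfp36l2 and Hnrnpd positive. Leaving out 1 array could not turn these signs, because the groups of these genes did not overlap. The within-array changes are the same by construction in 6 of the 16, and in the other 10 each of the 5 kept its sign. For the settings that left out 1 array this was fixed beforehand too, as the groups overlapped in none of the pairs. The change of Zfp36l2 relative to Zfp36l1 ran from 1.18 to 2.20 and that of Tia1 relative to Tial1 from 0.96 to 1.51.

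**Figure D5:**
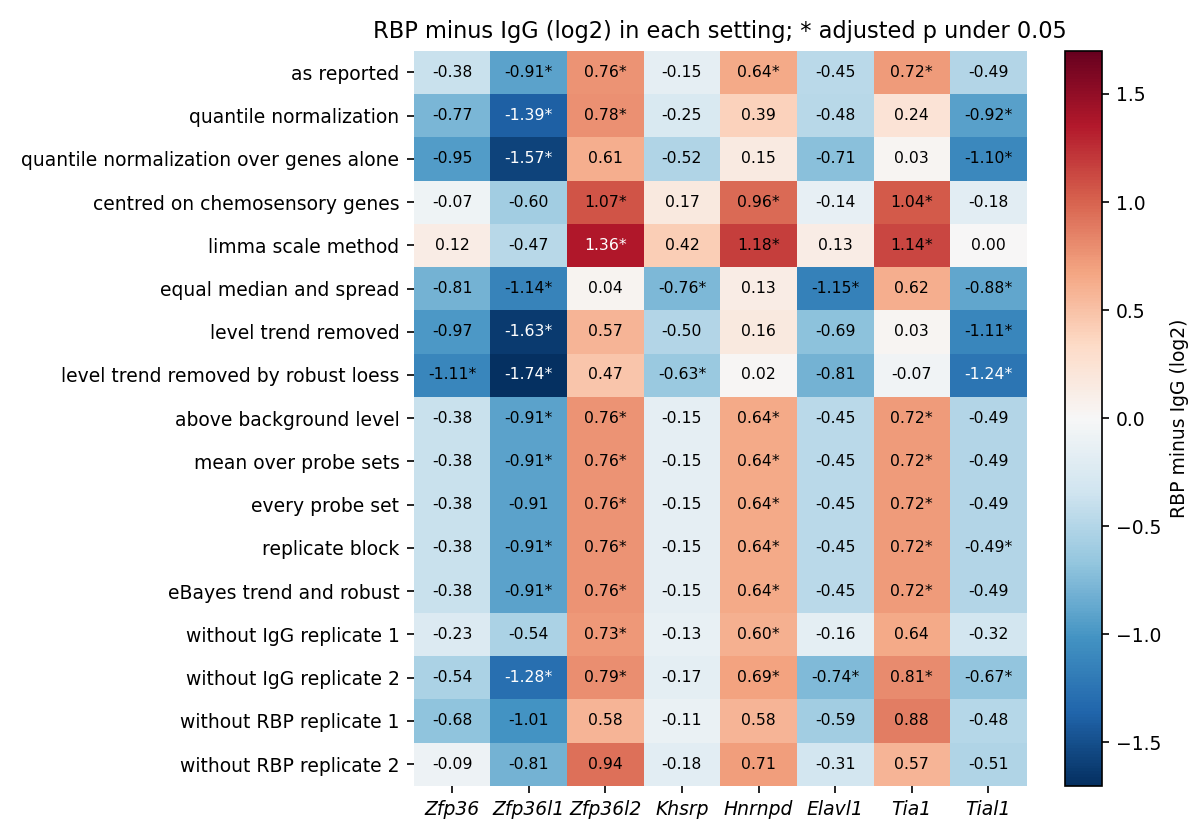
Difference, RBP minus IgG in log2 units, of each of the 8 genes (columns) as reported and in each alternative setting (rows), with colour by value and a star where the adjusted p was under 0.05. Zfp36l1 is negative, and Zfp36l2 and Hnrnpd positive, in every row.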

How the data were processed

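The 4 arrays form 2 groups of 2, read from the sample titles. The authors deposited log2 levels per probe set, for which the submitters' processing notes name RMA and affy. For the tool versions, background step and filters, the sources used here say nothing. Scanner files were not used here. The log base was taken from the values.

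The platform annotation paired 21789 of 35556 probe sets with 1 gene symbol, 1621 with several and 12146 with none. Each gene was represented by its probe set with the highest mean, with no filter on level. The test was limma 3.58.1 (lmFit, eBayes; R 4.3.3) over all genes, two-sided, with a threshold of 0.05. The residual and prior degrees of freedom were 2 and 3.76. The script was tested on simulated data. Named genes were the 8 members, up to 3 called genes per direction of each list, and the nearest gene to each member. The 8 genes, the lists and the pairs were chosen with earlier results of these data known. A few genes of the lists and markers were not analysed here. The alternatives were other scalings (the planned scaling to equal median and spread was run as such and by limma's scale method, which equalises medians only), a loess trend on level (span 0.3), a filter at background, other uses of probe sets, the replicate block, eBayes options and leaving out each array. Quantile normalization over genes alone and the robust loess were added after seeing the data. The number of arrays limits the precision.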

Additional observations from a re-analysis of the deposited data

How the results depend on the processing

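Of all genes 4741 were higher and 1304 lower, and of the 8 genes 3 were higher and 1 lower. Counts that moved by over 1.5 times are given by setting, with some counts over all genes beside them that moved less. Quantile normalization gave 2207 and 553 over all genes and 1 and 2 among the 8. Run over genes alone it gave 1075 and 959 over all genes and 0 and 2 among the 8. Centring on the chemosensory genes gave 317 lower, limma's scale method 279, and 0 of the 8 lower in each. Equal median and spread gave 4205 higher and 488 lower, and 0 and 4 of the 8. Removal of the level trend gave 1122 higher and 1014 lower, and 0 and 2 of the 8. By robust loess it gave 971 higher and 1135 lower, and 0 and 4 of the 8. Testing every probe set left 0 of the 8 lower, beside 1446 of all 21789 probe sets. With the replicate block 2199 genes were lower, and 2 of the 8 (Tial1 then passed, adjusted p = 0.0494 in limma). The array numbers are only labels, and the deviations of the arrays of one number correlated at 0.255 over genes. Leaving out each array in turn gave 1724 to 5153 higher and 99 to 2905 lower genes, and 0 to 3 higher and 0 to 3 lower of the 8. At an unadjusted p under 0.05, limma gave 1 to 4 higher and 0 to 5 lower of the 8 over the settings that kept all 4 arrays. As reported, 3 and 2 of the 8 stood beside 5913 and 2941 of all 19938 genes at that cutoff. For the other settings the shares of all genes at that cutoff were not counted. The median of all genes moved from -0.02 to 0.16 with quantile normalization, 0.29 after centring, 0.26 with the scale method and 0.33 with equal median and spread. Signs turned for Khsrp (0.17) and Ranbp1 (0.051) after centring, for Zfp36 (0.12), Elavl1 (0.13), Khsrp (0.42), Tial1 (0.001), Ifngr2 (0.087), Tram1 (0.21) and Ranbp1 (0.30) with the scale method, and for Tia1 (-0.065) and Gata2 (-0.001) with the robust loess. The causes were not tested.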
